A study of Mus musculus with 4 samples.

Results

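The enzymes described here make or recycle the building blocks of DNA and RNA. They are 9 genes chosen by symbol, Rrm1, Rrm2, Tyms, Dut, Tk1, Dck, Dctpp1, Cad and Umps, out of 24063 gene symbols in the count tables, and all 9 were found and passed the filter on low counts. RNA was measured in lung endothelial cells (ECs) of C57BL6 mice (C57BL6J in the study's methods) aged 8 weeks, taken by binding to anti-CD31 magnetic beads. The study's methods put isolated ECs into culture for later experiments. They do not say whether the ECs used for RNA were cultured first. The post-PNX (pneumonectomy) ECs came from lungs 7 days after the left lung had been removed, and the sham ECs came from mice that had a thoracotomy with no lung removed. The labels give no day for the sham mice. Each group had 2 libraries, 4 in all, and each library pooled the cells of 2 mice, so that values below are of pools and not of single animals.

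Dividing cells need deoxynucleotides for each round of DNA replication, and cells at rest keep only small pools of them. Ribonucleotide reductase turns ribonucleotides into deoxynucleotides, and thymidylate synthase and dUTPase then feed and guard the supply of thymidylate. Salvage kinases recover nucleosides from outside the pathway, and the long de novo route to UMP serves RNA and sugar nucleotides as well as DNA. Lung ECs are largely quiescent in the adult, and the lung that remains after PNX grows again.

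The depth was 41367438 to 50952879 counts per library with 1 transcript taken per gene, and the lowest count of any of the enzymes in a library was 196. The mice are labelled male, but not 1 count fell on any of 44 genes of chromosome Y in the 4 libraries, and Xist stood at 691 to 735 CPM (counts scaled by the library total), so the libraries go against that label in both groups alike. The endothelial list of 12 genes was present in each library, with a summed level of 12466 to 12605 CPM in sham and 10384 to 10405 CPM after PNX, and 10 of its 12 genes were lower after PNX. In this paragraph higher and lower mean an adjusted p under 0.01 in the edgeR test described below. Of all genes tested, 29.3% were higher and 27.8% lower in this sense. Markers of other cells moved as well. The summed level of 7 macrophage and monocyte genes went from 3562 to 3576 CPM in sham to 4627 to 4654 CPM after PNX, with 7 of 7 higher. Lyz2 held most of that sum and rose 1.15-fold. C1qa, C1qb and C1qc rose 7.04-, 7.88- and 7.78-fold, and Cd68, Csf1r and Mrc1 rose 1.77-, 1.61- and 1.63-fold. The 6 fibroblast genes went from 936 to 948 CPM to 2943 to 2961 CPM, with 4 higher and 1 lower. The higher ones were the matrix genes Col1a1, Col1a2, Dcn and Lum. Pdgfra was lower, with a log2 fold change of -0.23, and Tcf21 did not pass, at 0.016. The 6 mesothelial genes went from 214 to 217 CPM to 467 to 474 CPM, with 6 of 6 higher. All 6 alveolar epithelial genes were lower, from a sum of 7119 to 7169 CPM to one of 4665 to 4683 CPM. All 5 B cell genes (134 against 74.2 to 77.7 CPM) and all 6 T cell genes (36.2 to 38.3 against 19.8 to 20.4 CPM) were lower as well. The 6 genes of all leukocytes summed to 878 to 880 CPM in sham and 929 to 936 CPM after PNX, with 3 higher and 1 lower. The study checked the isolated cells by flow cytometry for endothelial markers and the absence of a leukocyte marker. It describes this as a check and not as a sort. The 6 adipocyte genes had the largest median log2 fold change of the marker lists, 2.60 over the 5 tested, with 4 higher past both thresholds and 1 lower, and a low sum of 45.8 to 46.7 CPM in sham and 76.1 to 76.8 CPM after PNX. Fabp4, which was higher, and Cidec, which was lower, held most of this sum. The defining marker of the list, Adipoq, had 0.91 and 1.02 normalized counts in sham and 81.6 and 104 after PNX. The 4 neutrophil genes summed to 142 to 149 CPM and then to 170 to 173 CPM, with 3 higher and 1 lower, and the 4 erythroid genes to 105 CPM and then to 113 to 115 CPM, with 2 higher. No marker in these lists was at 0 in all libraries, and the part of these cells in the results below was not tested. In bulk RNA, more cells of a type and more RNA per cell cannot be told apart.

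All 9 enzymes were higher in post-PNX ECs, in both libraries and for each gene, and the rises were unequal. The 6 enzymes with a log2 fold change over 1 and an adjusted p under 0.01 were Rrm2, Tk1, Tyms, Dut, Rrm1 and Dck, each of them an enzyme of deoxynucleotide supply. Those with smaller rises were Dctpp1, Umps and Cad. Across the 16208 genes tested, 5.9% were higher past both thresholds, 29.3% were higher at an adjusted p under 0.01 whatever the size, and 40.8% had both post-PNX libraries above both sham libraries, as all 9 enzymes did. The opposite, both post-PNX libraries below, was seen in 40.5%. The median log2 fold change of the 9 enzymes was 1.14 and that of all genes tested was 0.00. All of these tests are quasi-likelihood F tests in edgeR, adjusted by Benjamini-Hochberg across the genes tested. They measure the spread between pooled libraries, which was little more than counting noise. Very small adjusted p values therefore do not speak for the spread between animals, which was not measured.

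**Figure D1:**
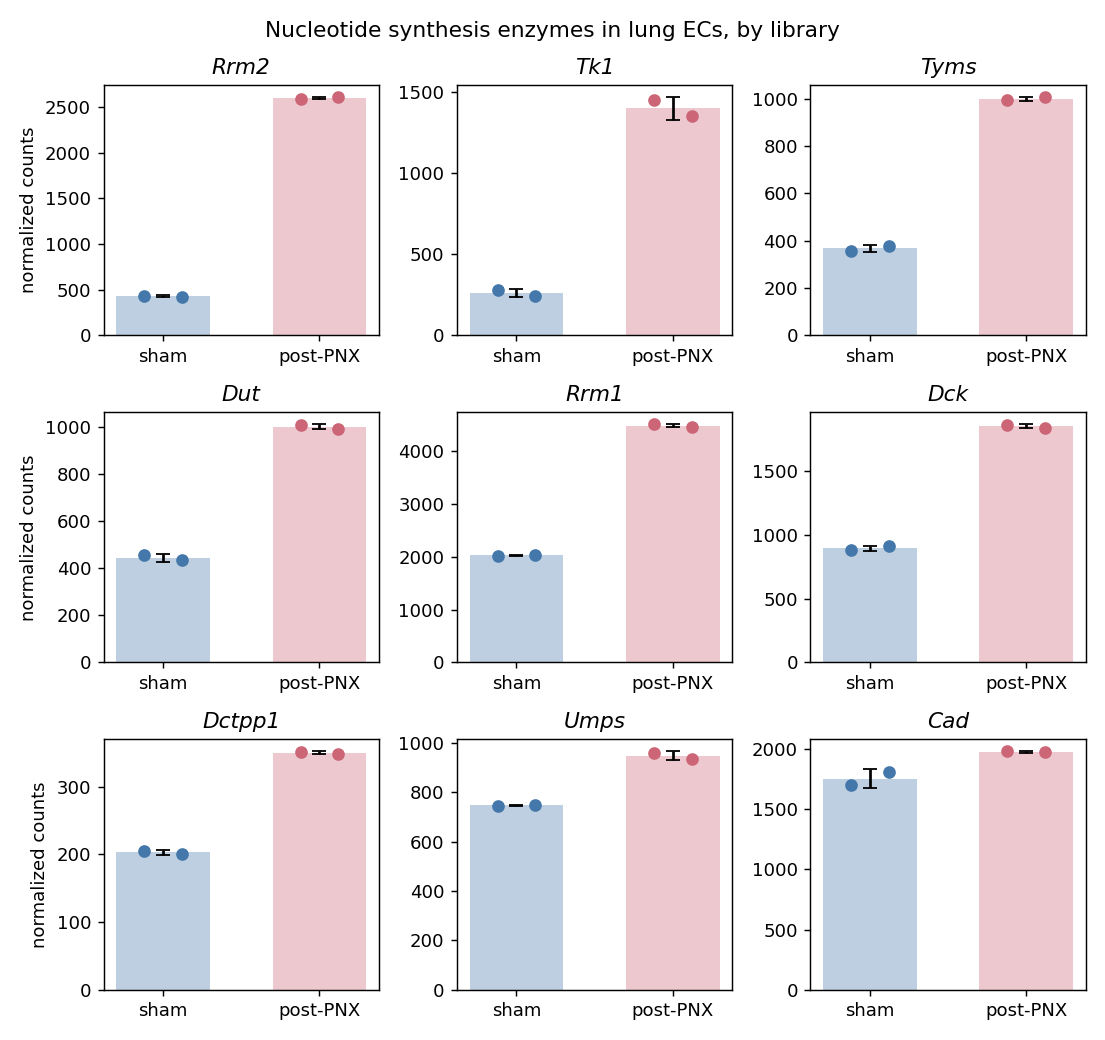
Normalized counts (linear axis from 0) of the 9 enzymes, ordered by log2 fold change, in sham and post-PNX ECs. Points are libraries, bars are means of 2 libraries and error bars are SD. Both post-PNX points lie above both sham points in each panel, by a wide margin for Rrm2 and Tk1 and by a narrow one for Cad.

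Rrm2, on chromosome 12 from 24708254 to 24714146, encodes the small subunit of ribonucleotide reductase, which carries the radical needed for catalysis and is made mainly in S phase. Its normalized counts (scaled to the mean library) were 434 and 423 in sham ECs and 2588 and 2606 in post-PNX ECs. The libraries of a group lay close together and the groups far apart. The rise was 6.05-fold, a log2 fold change of 2.60 (standard error 0.049, edgeR adjusted p = 9.1e-49), and only 228 of the 16208 genes tested had a larger one. Rrm1, on chromosome 7 from 102441695 to 102469771, encodes the large catalytic subunit of the same enzyme. It had 2017 and 2033 normalized counts in sham ECs and 4497 and 4454 in post-PNX ECs. This was a 2.21-fold rise, a log2 fold change of 1.14 (standard error 0.032, edgeR adjusted p = 7.0e-40), so both subunits rose and the small one rose more.

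Measured per length of transcript, the small subunit caught up with the large one. The ratio of Rrm2 to Rrm1 in the deposited FPKM, which are counts divided by transcript length and library total, was 0.395 and 0.382 in sham ECs and 1.06 and 1.07 in post-PNX ECs, a mean of 0.388 ± 0.0092 (SD, n = 2) against 1.06 ± 0.012 (SD, n = 2). The ranges do not overlap, but 2 against 2 libraries cannot give an exact two-sided permutation p below 0.333, so no test was made. The other small subunit, Rrm2b, is induced by p53 and serves DNA repair and mitochondrial DNA in cells outside S phase. It moved the other way, from 2603 and 2411 normalized counts in sham to 1713 and 1636 after PNX. The log2 fold change was -0.58 (standard error 0.039, edgeR adjusted p = 1.2e-20). When libraries were scaled to the 12 endothelial genes it was still lower, with a log2 fold change of -0.31. The FPKM of Rrm2 was 0.345 and 0.363 times that of Rrm2b in sham ECs and 3.13 and 3.30 times in post-PNX ECs. Thus Rrm2b was the more abundant small subunit transcript in the sham libraries and Rrm2 in the post-PNX libraries. Which cells in these bulk libraries held each transcript was not tested.

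**Figure D2:**
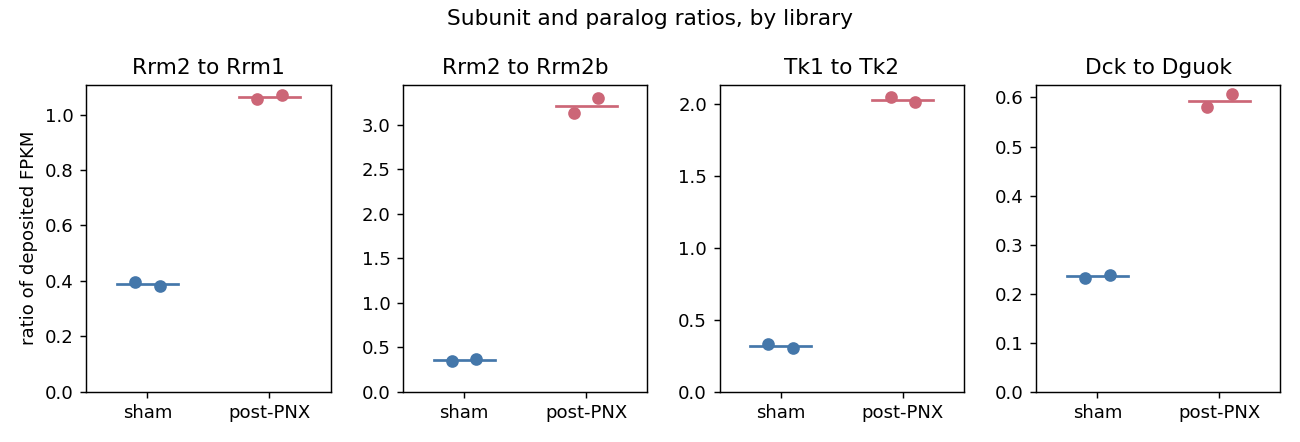
Ratios of deposited FPKM per library (linear axes from 0) for the subunits Rrm2 and Rrm1, the small subunits Rrm2 and Rrm2b, the thymidine kinases Tk1 and Tk2, and the deoxynucleoside kinases Dck and Dguok. Points are libraries and lines are means of 2 libraries. Each ratio is higher in both post-PNX libraries, and those of Rrm2 to Rrm1, Rrm2 to Rrm2b and Tk1 to Tk2 pass from under to over 1.

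The sequences just before the start of Rrm2 and Rrm1 are shown because the subunits rose unequally, with those of Dck, which rose near the fold threshold, and Umps, which changed little. These 4 were picked after the sequences had been seen. Left out were the windows of Tyms, Tk1, Dut and Cad, which lie at least partly within the annotated span of their own gene. The window of Dctpp1 is not printed either, although it lies outside the span of its gene and holds a CCAAT and a GC box word. No check of the windows against other genes is given. Each is the 100 bases upstream of the RefSeq start on GRCm38.p6 (mm10), 5′ to 3′ on the strand of the gene, with CCAAT and GC box (GGGCGG) words on either strand in capitals. The Rrm2 window is chr12:24708154-24708253 on the plus strand, that of Rrm1 is chr7:102441595-102441694 on the plus strand, that of Dck is chr5:88764913-88765012 on the plus strand and that of Umps is chr16:33967039-33967138 on the minus strand.
Rrm2: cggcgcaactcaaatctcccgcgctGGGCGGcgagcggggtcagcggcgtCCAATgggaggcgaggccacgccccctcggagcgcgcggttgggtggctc
Rrm1: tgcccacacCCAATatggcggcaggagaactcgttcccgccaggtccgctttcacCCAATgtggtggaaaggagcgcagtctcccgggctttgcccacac
Dck: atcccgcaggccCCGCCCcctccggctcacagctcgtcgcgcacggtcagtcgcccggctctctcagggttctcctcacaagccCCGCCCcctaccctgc
Umps: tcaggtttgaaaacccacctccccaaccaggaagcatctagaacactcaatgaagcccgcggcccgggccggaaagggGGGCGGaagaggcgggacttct
The Rrm1 window holds CCAAT at 91 and 45 bases before the start and the Rrm2 window holds it at 50. In the full RefSeq windows, from 250 bases before to 50 after the start, CCAAT was found on either strand in Rrm1, Rrm2 and Dctpp1, 3 of 9 enzymes, against 37.4% of 32851 windows of the same length. A GC box was found in 8 of 9, all but Rrm1, against 35.7% of all windows. The counts over 9 enzymes include Tyms, Tk1, Dut and Cad, whose windows lie at least partly within their own gene. The E-box CACGTG was found in Tyms alone, 1 of 9 against 7.15%. None of the 4 words TTTCCCGC, TTTGGCGC, TTTCGCGC and TTTGCCGC of the E2F consensus was found in the 9 windows, against 2.26% of all windows, which says only that these letters are not there. GGCGG, the core of the cell cycle element CDE, was found in 9 of 9 against 48.8%, and it lies inside each GC box. TTTGAA, the word of the cell cycle homology region, was found in Dck and Umps, 2 of 9 against 17.9%, and TATAAA in Umps alone, 1 of 9 against 13.6%. These 7 motifs are all that were searched, each on both strands, and a match is not a binding site.

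Among the enzymes of thymidylate supply, Tk1 had the largest change. Tk1, on chromosome 11 from 117815519 to 117826087, encodes the cytosolic thymidine kinase, which salvages thymidine and is present mainly in cycling cells. It had 277 and 245 normalized counts in sham ECs and 1448 and 1349 in post-PNX ECs. The rise was 5.35-fold, a log2 fold change of 2.42 (standard error 0.065, edgeR adjusted p = 2.5e-40), and it far exceeded the spread within groups, which was the widest of the 9 enzymes in relation to the mean. An exon of Afmid on the opposite strand overlaps Tk1 by 83 bases in GENCODE, and the use of strand in the counting is not given in the sources used here. The mitochondrial kinase Tk2 had 1462 and 1409 normalized counts in sham and 1242 and 1175 after PNX. Its log2 fold change was -0.25 (standard error 0.045, edgeR adjusted p = 3.1e-06), and it turned to 0.03 when libraries were scaled to the endothelial genes. In FPKM, Tk1 stood at 0.332 and 0.304 times Tk2 in sham ECs and at 2.04 and 2.01 times after PNX.

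Tyms, on chromosome 5 from 30038546 to 30073645, encodes thymidylate synthase, which makes dTMP from dUMP with a folate cofactor. It had 358 and 379 normalized counts in sham ECs and 993 and 1006 in post-PNX ECs, a 2.72-fold rise and a log2 fold change of 1.44 (standard error 0.064, edgeR adjusted p = 3.6e-29). Its coding and noncoding transcripts held nearly the same counts, 2679 and 2681 over all libraries, and a pseudogene, Tyms-ps, lies elsewhere in the genome, so reads could be shared. Dut, on chromosome 2 from 125247248 to 125259049, encodes dUTPase, which removes dUTP and yields the dUMP that Tyms uses. It had 456 and 433 normalized counts in sham ECs and 1009 and 993 in post-PNX ECs. This was a 2.25-fold rise, a log2 fold change of 1.17 (standard error 0.061, edgeR adjusted p = 1.2e-25). Tyms and Dut thus ended at nearly equal normalized counts, although Dut, a shorter transcript, had the higher FPKM.

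Dck, on chromosome 5 from 88765013 to 88783277, encodes deoxycytidine kinase, the salvage kinase for deoxycytidine and purine deoxynucleosides. It had 876 and 907 normalized counts in sham ECs and 1859 and 1836 in post-PNX ECs. The rise was 2.07-fold, a log2 fold change of 1.05 (standard error 0.045, edgeR adjusted p = 9.0e-30), just past the fold threshold. Dguok, the mitochondrial deoxyguanosine kinase, went from 1367 and 1387 normalized counts to 1163 and 1099. The log2 fold change was -0.28 (standard error 0.046, edgeR adjusted p = 3.1e-07), and it shrank to -0.01 under the endothelial scaling. The FPKM ratio of Dck to Dguok was 0.233 and 0.237 in sham ECs and 0.580 and 0.607 in post-PNX ECs. For both pairs of kinases, the cytosolic enzyme rose and the mitochondrial one did not.

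Dctpp1, on chromosome 7 from 127256959 to 127260667, encodes a pyrophosphatase that breaks down dCTP and its modified forms. It had 206 and 199.8 normalized counts in sham ECs and 352 and 349 in post-PNX ECs, the lowest counts of the 9 enzymes. The rise was 1.73-fold, a log2 fold change of 0.79 (standard error 0.094, edgeR adjusted p = 7.4e-11). It was short of the fold threshold with the usual scaling and past it, at 1.06, when libraries were scaled to the endothelial genes.

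The de novo route to UMP changed least. Cad, on chromosome 5 from 31054620 to 31078479, encodes the multifunctional protein of its first steps, and Umps, on chromosome 16 from 33954782 to 33967038, the protein of its last. Umps had 744 and 749 normalized counts in sham ECs and 961 and 935 in post-PNX ECs, a 1.27-fold rise and a log2 fold change of 0.35 (standard error 0.055, edgeR adjusted p = 1.3e-07). A noncoding gene on the opposite strand, Gm15829, overlaps an exon of Umps by 213 bases. Cad had 1699 and 1809 normalized counts in sham ECs and 1981 and 1972 in post-PNX ECs. The rise was 1.13-fold, a log2 fold change of 0.17 (standard error 0.039, edgeR adjusted p = 9.7e-05), and 4889 of the 16208 genes tested had a larger one. It did not pass without the first sham library, with a log2 fold change of 0.13 (edgeR adjusted p = 0.0145), or in DESeq2's Wald test (adjusted p = 0.0120). Over its 12 alternatives the adjusted p of Cad lay between 9.7e-12 and 0.0145.

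The step between Cad and Umps belongs to Dhodh, the mitochondrial dihydroorotate dehydrogenase. Dhodh had 754 and 784 normalized counts in sham and 638 and 658 after PNX. The log2 fold change was -0.25 (standard error 0.060, edgeR adjusted p = 0.00027), and it turned to 0.03 under the endothelial scaling and did not pass in DESeq2's Wald test (adjusted p = 0.0195). Ctps, which makes CTP from UTP, had a log2 fold change of 0.40 (edgeR adjusted p = 3.0e-13) and Cmpk1, the UMP and CMP kinase, one of 0.29 (edgeR adjusted p = 1.7e-14). Ctps2 had a log2 fold change of -0.17, and of 0.11 under the endothelial scaling.

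**Figure D3:**
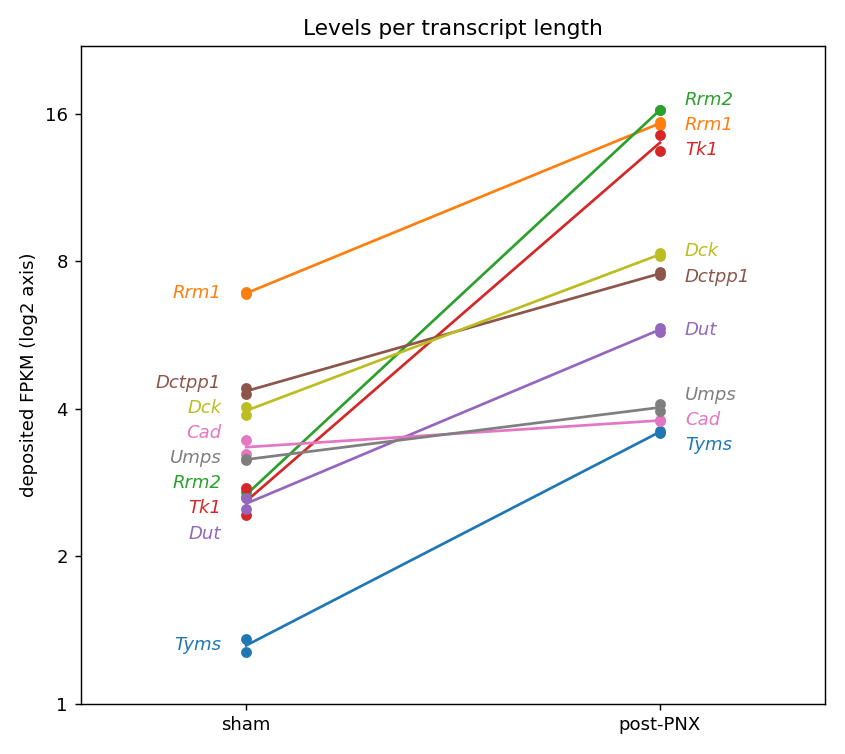
Deposited FPKM (log2 axis) of the 9 enzymes in sham and post-PNX ECs. Points are libraries and lines join the means of 2 libraries. Rrm2 and Tk1 rise from among the lower levels in sham to the upper 3 after PNX, while the lines of Cad and Umps are nearly flat.

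The order of the levels changed with these unequal rises. In FPKM, the sham order was Rrm1 (6.88 ± 0.041, SD, n = 2), Dctpp1, Dck, Cad, Umps, Rrm2 (2.67 ± 0.047, SD, n = 2), Tk1, Dut and Tyms (1.31 ± 0.054, SD, n = 2). Of the neighbours in this order, Rrm2 overlapped Tk1 and Tk1 overlapped Dut in their library values, and the other neighbours were separate. In post-PNX ECs the order was Rrm2 (16.3 ± 0.050, SD, n = 2), Rrm1 (15.3 ± 0.13, SD, n = 2), Tk1 (14.0 ± 0.72, SD, n = 2), Dck, Dctpp1, Dut, Umps, Cad and Tyms (3.59 ± 0.026, SD, n = 2), with no overlap between neighbours. Tyms was lowest in both groups. The highest and the lowest of the 9 levels differed 5.23-fold in sham and 4.54-fold after PNX.

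**Figure D4:**
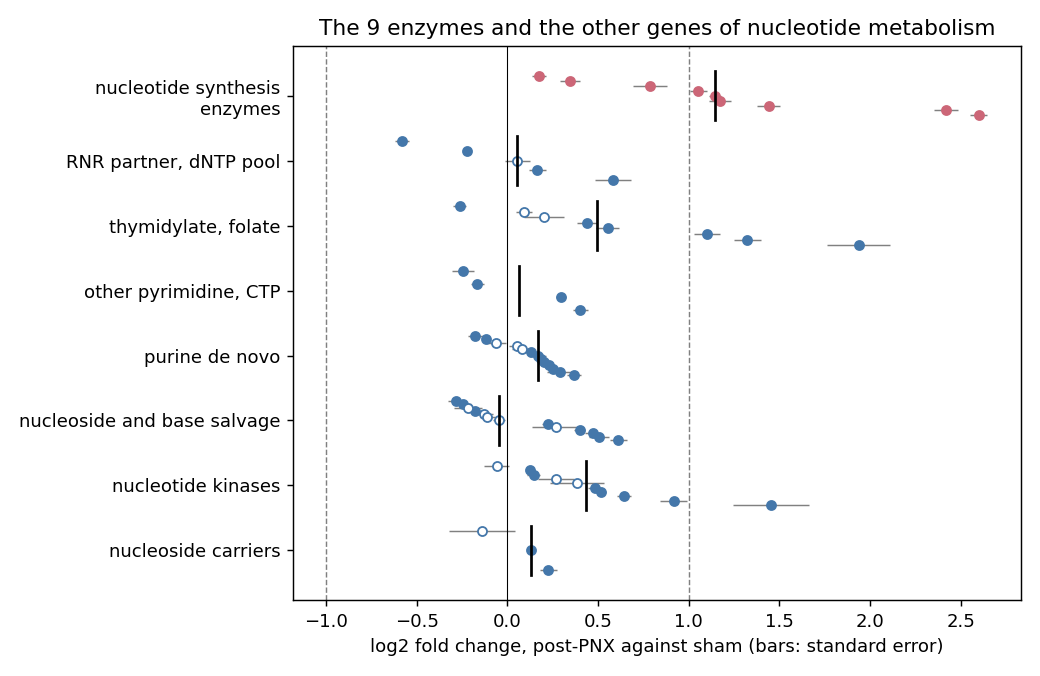
Log2 fold changes (post-PNX against sham) of the 9 enzymes in red and of 56 other genes of nucleotide metabolism in blue, by list. Filled points passed an adjusted p of 0.01 and open points did not, horizontal bars are standard errors, black ticks are list medians and dashed lines mark -1 and 1. The enzymes spread from 0.17 to 2.60, and of the other genes those outside the thymidylate and folate list and the nucleotide kinases all lie between the dashed lines.

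The other genes of nucleotide metabolism moved less. Of 56 genes, 31 (55.4%) were higher and 10 (17.9%) lower at an adjusted p under 0.01, against 29.3% and 27.8% of all genes tested, and their median log2 fold change was 0.19. Scaling to the 12 endothelial genes shifts the median of all genes to 0.27 and turned this split to 46 higher and 1 lower, the latter being Rrm2b. Past both thresholds 4 genes were higher and none was lower, against 5.9% and 1.66% of all genes tested. Among them were Dctd, Mthfd2 and Nme4, of which Mthfd2 was chosen after its values were seen.

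By median log2 fold change, 0.50, the thymidylate and folate list was the closest to the enzymes. It had 5 of 8 genes higher and 1 lower. The nucleotide kinases had a median of 0.43, with 7 of 10 higher and none lower. Dctd, the deaminase that makes dUMP from dCMP, rose from a mean of 39.4 ± 1.93 (SD, n = 2) normalized counts to 150.9 ± 0.84 (SD, n = 2), with a log2 fold change of 1.94 (standard error 0.17, edgeR adjusted p = 2.6e-15). The Dctd transcript used is a noncoding one, with a mean of only 0.20 FPKM in sham. Dctd, Dut and Tyms, which act next to each other in making dTMP, therefore all passed both thresholds. Dut did not pass the stricter glmTreat test given below (adjusted p = 0.0211). Mthfd2, a mitochondrial folate enzyme, had a log2 fold change of 1.10 (edgeR adjusted p = 2.0e-21). Mthfd1, its cytosolic relative, had one of -0.26, and of 0.01 under the endothelial scaling.

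Among the genes that set the deoxynucleotide pool, Nudt1, which clears oxidised nucleotides, rose with a log2 fold change of 0.58 (edgeR adjusted p = 8.8e-07). Samhd1, which breaks down deoxynucleotides and limits their pools in resting cells, went from 11808 and 11778 to 10210 and 10027 normalized counts. Its log2 fold change of -0.22 (edgeR adjusted p = 4.1e-14) turned to 0.05 under the endothelial scaling. Nt5c, a deoxyribonucleotidase, had a log2 fold change of 0.16 (edgeR adjusted p = 0.0010), which did not pass without the first sham library (0.13), without the first post-PNX library (0.12) or in DESeq2's Wald test.

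De novo purine synthesis changed little, with 8 of 13 genes higher, 2 lower and log2 fold changes between -0.18 and 0.37. The largest rises were those of Atic, the last enzyme of IMP synthesis (0.37, edgeR adjusted p = 2.9e-12), and Adssl1, an adenylosuccinate synthase (0.29, edgeR adjusted p = 0.00039, and 0.22 without the first sham library, where it did not pass, nor did it in DESeq2's Wald test). Prps2, which makes the ribose donor, and Impdh1, which commits IMP to guanine nucleotides, had log2 fold changes of -0.18 and -0.12, turned to 0.10 and 0.15 by the endothelial scaling. Without the second post-PNX library Prps2 did not pass, at -0.13. Neither arm of de novo synthesis, to UMP or to IMP, thus held a gene past the fold threshold.

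In the salvage list 5 of 13 genes were higher and 3 lower, with a median of -0.05. Aprt, the adenine salvage enzyme, rose from 1117 and 1278 to 1812 and 1836 normalized counts, with a log2 fold change of 0.61 (edgeR adjusted p = 1.8e-18), and the uridine kinase Uck2 had one of 0.51 (edgeR adjusted p = 3.6e-12). Of the nucleotide kinases 7 of 10 were higher and none was lower, among them the closely related Nme1 and Nme2, whose reads may be shared. They were led by Nme4 with a log2 fold change of 1.46 (standard error 0.21, edgeR adjusted p = 1.4e-08) from only 29.9 and 37.7 normalized counts in sham, and by Ak1, an adenylate kinase, with one of 0.92 (edgeR adjusted p = 1.5e-17). The nucleoside carriers Slc29a1 and Slc29a3 had log2 fold changes of 0.13 and 0.22, and Slc29a3 did not pass without the first post-PNX library (0.14).

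Genes of DNA replication and mitosis were measured beside the enzymes. All 10 genes of S phase replication, such as Mcm3, Mcm6 and Pcna, were higher, 8 of them past both thresholds. Their median log2 fold change was 1.27 and their summed level 283 to 286 CPM in sham and 623 to 632 CPM after PNX. All 10 mitotic genes, such as Mki67 and Top2a, were higher past both thresholds, with a median of 3.07 and a summed level of 78.8 to 79.0 CPM in sham and 643 to 654 CPM after PNX. The part of cycling cells in the rise of the enzymes was not tested.

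The genes whose pattern over the 4 libraries was most like that of an enzyme were found by the Euclidean distance between log2 normalized counts centred on each gene's mean. Genes averaging under 100 normalized counts were left out. For Rrm2 they were Bai2, Ccna2 and 2810417H13Rik, at distances of 0.044, 0.057 and 0.058. For Tyms they were Fndc1, Mxd3 and Lmnb2, at 0.027, 0.028 and 0.041. For Cad they were Mpdu1, Arpc5l and Spryd3, at 0.013, 0.014 and 0.016. With 4 libraries in 2 groups, this distance depends mostly on the size of the change between the groups.

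A stricter question is whether a log2 fold change itself exceeds 1. In edgeR's glmTreat test of this, 4 of the 9 enzymes passed, Rrm2 (adjusted p = 2.2e-37), Tk1 (adjusted p = 3.5e-28), Tyms (adjusted p = 1.7e-08) and Rrm1 (adjusted p = 6.9e-05). Dut (adjusted p = 0.0211) and Dck (adjusted p = 0.744) did not, so that a rise beyond the threshold of 1 is not shown for these by this test.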

How the data were processed

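Per the labels and the study's methods, stranded polyadenylated RNA libraries were read from both ends and mapped to mm10, with STAR named in the submitters' processing notes. The counting program, its use of strand and all versions are not given in the sources used here. The authors deposited, for each library, raw counts on 33068 RefSeq transcripts. Transcripts of the same enzyme held nearly the same counts, so a read appears to have been counted for each transcript it overlapped. The authors also deposited FPKM, in which counts are divided by transcript length and by the total over all transcripts, and TPM for each transcript.

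Each symbol was represented by its most counted transcript, summed over libraries. Other transcripts of the 9 enzymes held at least 98.9% of its counts. The mean chi-square per gene was 1.74 between the sham libraries and 1.51 between the post-PNX libraries, where counting noise alone gives about 1. Between same-numbered libraries of different groups it was 128 and 114. The fit was made with edgeR 4.0.16 (R 4.3.3) on the counts: filterByExpr left 16208 genes, TMM factors lay between 0.9985 and 1.0026, and post-PNX was compared with sham by the quasi-likelihood F test with Benjamini-Hochberg adjustment. A gene passed with an adjusted p under 0.01, and passed both thresholds with a log2 fold change beyond 1 as well, after the study's methods. The standard error is the size of the log2 fold change over the square root of F. Normalized counts are scaled to the mean library size. FPKM served only to compare levels between genes, without tests. Alternatives used other scalings, filters, tests and sums over transcripts, with DESeq2 1.42.0 among the tests. The steps were also run on simulated counts, with the same small spread beyond counting noise for all genes. That run cannot tell how the steps perform at a larger spread.

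The 9 enzymes and all gene lists were chosen with earlier results of these data known. Named genes are the 9 enzymes, the 2 largest rises and falls that passed in each list, the paralogs Rrm2b, Tk2 and Dguok, and the 3 nearest genes of Rrm2, Tyms and Cad. A gene that this rule names is not reported here. Coordinates and promoter sequences are from RefSeq on GRCm38.p6, matched by symbol for 9 of 9 enzymes. Exon overlaps are from GENCODE M21 on GRCm38.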

Additional observations from a re-analysis of the deposited data

How the results depend on the processing

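Over the alternatives run, no enzyme changed direction and the 6 enzymes past both thresholds stayed at 6, except for 7 with the endothelial scaling and 4 in the glmTreat test. The cause of differences between settings was not tested beyond what a setting does by its construction. Scaling to the 12 endothelial genes, which were lower after PNX as a list, raised the median log2 fold change of the enzymes from 1.14 to 1.42, while the median of all genes shifted to 0.27, and left 1 lower gene of nucleotide metabolism in place of 10. Leaving out each library in turn gave medians from 1.14 to 1.15 for the enzymes. Under the endothelial scaling the log2 fold changes of these genes of nucleotide metabolism turned from negative to positive, whether or not either value passed the test, to 0.053 in Samhd1, 0.0099 in Mthfd1, 0.027 in Dhodh, 0.11 in Ctps2, 0.10 in Prps2, 0.21 in Ppat, 0.15 in Impdh1, 0.026 in Tk2, 0.093 in Uck1, 0.16 in Uckl1, 0.23 in Adk, 0.14 in Tymp, 0.055 in Ada, 0.21 in Nme3 and 0.13 in Slc29a2. Leaving out 1 library, Nt5m lay between -0.017 (without the second post-PNX library) and 0.13, and Slc29a2 between -0.33 and 0.059 (without the second sham library). The replicate numbers in the titles are shared, but the libraries come from different mice, and the deviations of same-numbered libraries correlated with r = 0.02 across 13402 genes. With the replicate block, 9 of 9 enzymes still passed and 6 passed both thresholds, the median log2 fold change was 1.14, and the other genes gave 31 higher and 11 lower. The replicate block changed 1 call among the 65 genes, that of Ada. With 2 libraries per group the spread is estimated mostly from all genes together, and where a library was left out, the lone library of its group was assumed to vary like the others. The deposited TPM gave the order of levels seen in FPKM.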
